A study of Mus musculus with 22 samples.

Results

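The connexins described here are 7 genes, Gja1, Gja4, Gja5, Gjb2, Gjb5, Gjb6 and Gjc1, out of 18193 genes measured, read by 13 of 45101 probe sets on Affymetrix mouse expression arrays. Gja1 had 6 probe sets, Gjc1 had 2 and every other connexin had 1. All probe sets that the platform annotation gave to exactly 1 of these genes were taken, and the 7 are compared over the groups of the titles. Gjb2 was chosen by its measured levels in these arrays, which fell with a mutant oncogene, and those differences are given as a description only. The cells were mouse embryonic fibroblasts (MEFs), grown from embryos, and RNA was taken 7 days after infection with an adenovirus. The 5 control arrays came from wild type MEFs given a virus with GFP. The 5 oncogene arrays (replicates 1, 3, 4, 5 and 6) came from MEFs whose mutant oncogene was turned on by a virus with Cre recombinase, and the series' design text counts 6 such samples, of which 5 were used here. The 5 Wt1-null arrays came from MEFs in which Cre removed Wt1, a zinc finger transcription factor (floxed Wt1f/f alleles are named for replicates 1 and 2, and the virus for replicates 3 to 5 only by the design text). The 7 double arrays came from MEFs in which Cre did both. All mutant groups received Cre and all controls GFP, and their viruses therefore differed too. Whether replicates were separate embryos or cultures is not said, and the p-values cover only how far these arrays scatter, which may be technical.

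Connexins are membrane proteins that assemble in rings called connexons, and connexons of neighbouring cells dock to form the channels of gap junctions, through which ions and small molecules pass directly between cells. Different connexins can share a connexon and give channels of different selectivity. Cx43, the product of Gja1, is the main connexin of fibroblasts. Cx26 (Gjb2), Cx30 (Gjb6) and Cx31.1 (Gjb5) are known from epithelia such as the inner ear and skin, Cx37 (Gja4) and Cx40 (Gja5) from the vessel wall, and Cx45 (Gjc1) from the heart and smooth muscle.

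Values are RMA levels on the log2 scale, which ran from 3.29 to 15.14 with array medians of 6.23 to 6.33. A change is a difference of group means on that scale with the standard error (SE) of a limma fit over all 22 arrays and 18193 genes, and genes with an adjusted p below 0.05 are named as called. In bulk RNA, fewer cells of a type and less RNA per cell cannot be told apart. As a guide to background, 3 Y-linked genes read 3.65 to 5.06 in the 9 arrays where Xist, made from the inactive X chromosome, was high. These were 2 of the 5 control arrays, 2 of the 5 Wt1-null arrays, 5 of the 7 double arrays and 0 of the 5 oncogene arrays. The group means of Wt1 were 4.38 to 4.59, within that background, so Wt1 gave no check of its deletion. The array most like Wt1-null replicate 2 was double replicate 2 (correlation 0.998, SD of the difference 0.152), and Wt1-null replicates 3 and 4 were nearly as alike (SD 0.162). The accession numbers fall into 3 sets, of which the third held 4 control, 4 oncogene and all 7 double arrays. All 5 Wt1-null arrays were in the first and second sets, so double against Wt1-null cannot be told apart from a difference between sets. Wt1-null against control has nearly the same limit, because only 1 control array, in the second set, shared a set with Wt1-null arrays. The interaction uses the Wt1-null and the control arrays, so it carries this limit and the difference in virus. All 11 fibroblast markers were above background, at mean levels of 10.83 to 14.83. Of 9 epithelial markers 7 were above it, among them Krt19 (8.79) and Epcam (8.40), but Krt14 (5.07) and Trp63 (5.42) only by little. Of 7 endothelial markers 4 were above it, among them Flt1 (7.81) and Kdr (7.17), with Cdh5 (5.35) also close to background. The epithelial Cdh1 (4.03) and Esrp1 (4.28) and the endothelial Pecam1 (4.62), Tie1 (4.98) and Emcn (4.34) were within background.

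The 250 bases before the start site of 3 connexins are shown, because Gjb2 and Gjb5 gave the changes described and Gja1 was the brightest and gave none. They are from RefSeq on GRCm38.p6, where 6 of the 7 genes had an entry and Gjc1 did not. Capitals mark matches to 5 motifs searched on both strands: the GC box GGGCGG, the AP-1 site TGANTCA, the ETS core CGGAAG, the GC-rich core GGGGGCG of Egr and Wt1 proteins, which can overlap a GC box, and the TATA box TATAAA.
Gjb2, chr14:57104703-57104952, minus strand: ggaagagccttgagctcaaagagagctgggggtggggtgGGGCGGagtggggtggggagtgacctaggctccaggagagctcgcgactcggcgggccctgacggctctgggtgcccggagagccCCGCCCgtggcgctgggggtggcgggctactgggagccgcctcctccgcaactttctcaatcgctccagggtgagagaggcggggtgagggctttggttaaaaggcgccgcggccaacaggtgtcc
Gjb5, chr4:127358165-127358414, minus strand: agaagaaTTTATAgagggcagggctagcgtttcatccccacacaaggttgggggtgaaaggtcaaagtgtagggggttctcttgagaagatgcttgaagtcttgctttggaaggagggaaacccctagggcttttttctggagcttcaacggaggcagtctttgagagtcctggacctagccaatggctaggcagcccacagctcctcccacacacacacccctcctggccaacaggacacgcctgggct
Gja1, chr10:56377050-56377299, plus strand: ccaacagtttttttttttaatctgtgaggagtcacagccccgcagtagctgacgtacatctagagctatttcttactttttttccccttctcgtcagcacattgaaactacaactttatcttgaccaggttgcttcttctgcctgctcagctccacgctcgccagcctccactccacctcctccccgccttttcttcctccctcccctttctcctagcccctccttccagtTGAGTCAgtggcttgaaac
The Gjb2 window had a GC content of 69.2% (median of 27025 promoters 52.0%). It held 2 GC box matches, at 211 to 206 and, on the opposite strand, 126 to 121 bases before the start, a motif that 32.9% of all promoters hold. The Gjb5 window held 1 match to the TATA box letters at 243 to 238 bases (13.0% of promoters), on the strand opposite to the gene. The Gja1 window held 1 AP-1 match at 19 to 13 bases (6.87% of promoters). The GC-rich core and the ETS core, held by 14.8% and 13.8% of promoters, had no match in these 3 windows. A match is a description of letters and not a binding site.

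Gjb2, which encodes Cx26, was high in most control and Wt1-null arrays and low in most oncogene arrays and all double arrays. The control arrays read 11.27, 11.80, 11.42, 10.49 and 8.49, with a mean of 10.69 ± 1.32 (SD, n = 5). The oncogene arrays read 6.91, 6.08, 6.39, 9.10 and 7.36, a mean of 7.17 ± 1.19 (SD, n = 5). Oncogene replicate 5, at 9.10, was above control replicate 5, at 8.49, so these groups overlapped in that pair. The Wt1-null arrays read 11.80, 6.86, 11.65, 11.74 and 8.85, a mean of 10.18 ± 2.24 (SD, n = 5). The double arrays ran from 5.90 to 7.23 with a median of 6.73 and a mean of 6.66 ± 0.49 (SD, n = 7), and lay below every control array, as did 1.79% of all genes. Wt1-null replicate 2, at 6.86, was within the range of the double arrays and next to double replicate 2, at 6.94, while replicates 1, 3 and 4 were at the level of the highest controls.

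**Figure D1:**
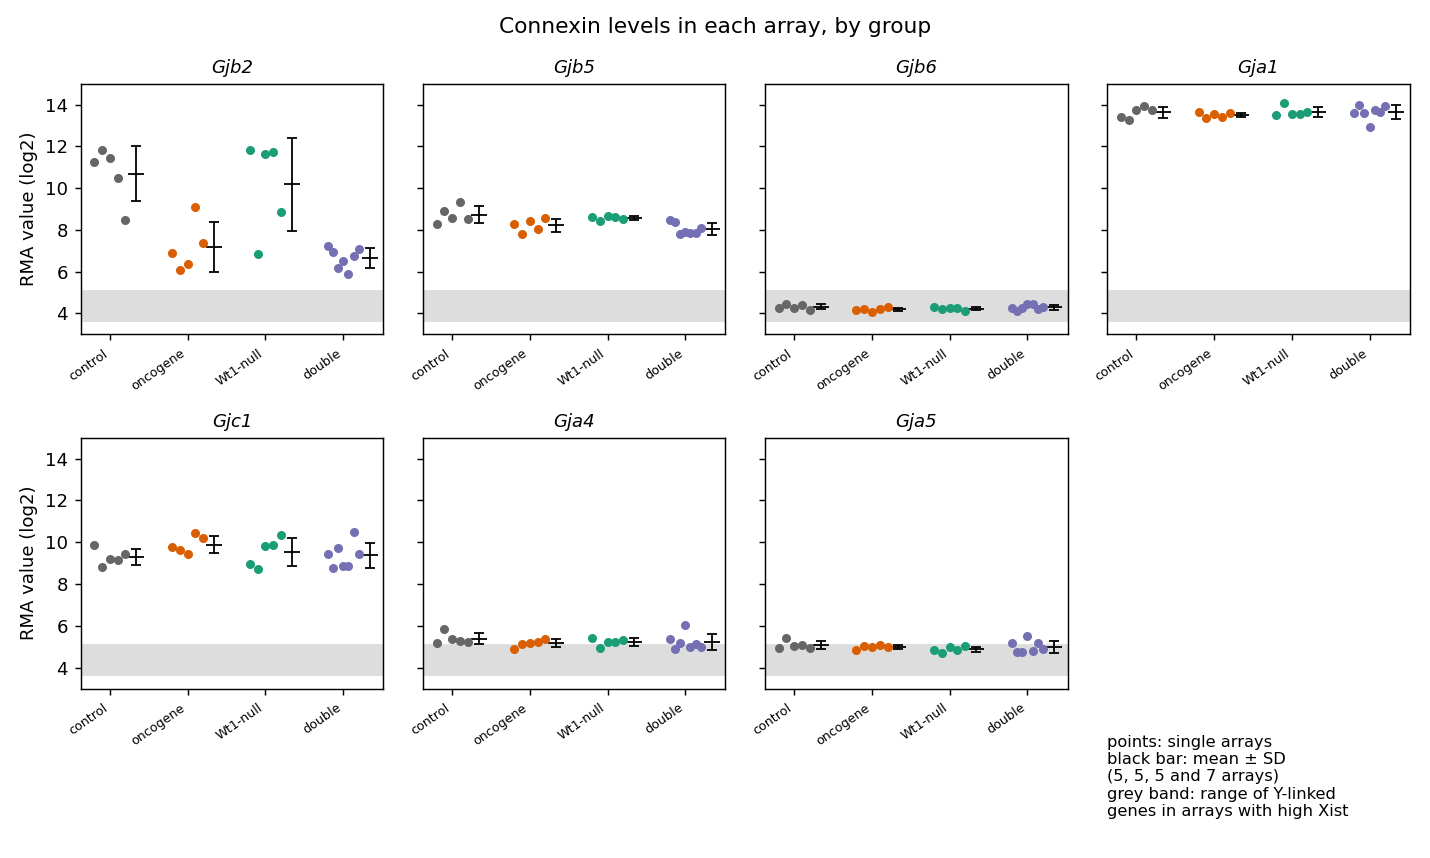
RMA value on the log2 scale (vertical axis) of the 7 connexins in every array, in 1 panel per gene, with arrays by group as points, black bars for the mean ± SD of 5, 5, 5 and 7 arrays and a grey band for the range of the Y-linked genes. The double arrays of Gjb2 sit between 5.90 and 7.23, below all control arrays, Gja1 stays between 12.93 and 14.05, and Gjb6 lies inside the grey band.

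These Gjb2 differences chose the gene and are given without a test. In oncogene against control the change was -3.53 ± 0.82 (SE; -5.23 to -1.82 as the 95% interval), an 11.5-fold difference on the linear scale. In double against control it was -4.03 ± 0.76 (SE), a 16.4-fold difference, and in double against Wt1-null -3.52 ± 0.76 (SE). Without Wt1-null replicate 2 the Wt1-null mean was 11.01 ± 1.44 (SD, n = 4) and the double against Wt1-null change was -4.35. Within the third accession set the change was -3.32 for oncogene against control and -3.89 for double against control. That set held no Wt1-null array, so double against Wt1-null has no such value. The interaction, which subtracts the oncogene change measured with Wt1 from that measured without it, was 0.01 (-2.31 to 2.33), and -0.82 without Wt1-null replicate 2. With other single arrays left out it ran up to 0.56, without control replicate 5, so its sign and size were not settled by these arrays.

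The differences that the choice of Gjb2 did not use were small against its spread. In Wt1-null against control Gjb2 changed by -0.52 (-2.22 to 1.19, limma adjusted p = 0.821), and by 0.31 without Wt1-null replicate 2 (adjusted p = 0.887). In double against oncogene it changed by -0.51 (-2.09 to 1.07, limma adjusted p = 1.0). Its spread within groups, an SD of 1.38, was at the 99.7th percentile of all genes, whose median was 0.257, so these intervals are wide and include changes of over 1 in either direction.

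Gjb5, which encodes Cx31.1, was lower in double than in control MEFs. The control arrays read 8.30, 8.90, 8.57, 9.32 and 8.51, a mean of 8.72 ± 0.40 (SD, n = 5). The double arrays ran from 7.80 to 8.47 with a median of 7.90 and a mean of 8.05 ± 0.28 (SD, n = 7). Control replicate 1, at 8.30, lay inside the double range, so the groups overlapped. Gjb5 fell by 0.67 ± 0.17 (SE; -1.02 to -0.33 as the 95% interval) in double against control, 1.59-fold, with a limma adjusted p = 0.019. The adjusted p was 0.0616 without control replicate 2, 0.0733 without control replicate 4 and 0.0593 in a limma fit of both groups alone, and 0.0376 within the third accession set, where the change was -0.78.

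The oncogene arrays of Gjb5 read 8.28, 7.79, 8.42, 8.02 and 8.58 (mean 8.22 ± 0.31, SD, n = 5), and the Wt1-null arrays 8.61, 8.40, 8.67, 8.60 and 8.54 (mean 8.57 ± 0.10, SD, n = 5). The Wt1-null arrays were the most even of the 4 groups. The Gjb5 change was -0.50 ± 0.18 (SE) in oncogene against control (limma adjusted p = 0.162) and -0.52 ± 0.17 in double against Wt1-null (adjusted p = 0.16), with no call. It was -0.16 in Wt1-null against control (adjusted p = 0.744), -0.17 in double against oncogene (adjusted p = 1.0) and -0.01 in the interaction (adjusted p = 0.992). Gjb5 lies next to Gja4 in the RefSeq gene order, and Gjb2 next to Gjb6.

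Gjb6, which encodes Cx30, did not rise above background in any of the 22 arrays. Its values ran from 4.07 to 4.46, with means of 4.32 ± 0.12 in control, 4.19 ± 0.09 in oncogene and 4.24 ± 0.08 in Wt1-null arrays (SD, n = 5 each) and 4.29 ± 0.12 (SD, n = 7) in double arrays. All values lay inside the range of the Y-linked genes, so its levels have no order here.

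Gja1, which encodes Cx43, was the brightest connexin, at the 99.3rd percentile of all probe sets, and gave no called change. Its brightest probe set ran from 13.25 to 13.92 in control arrays (13.62 ± 0.28, SD, n = 5) and from 13.37 to 13.62 in oncogene arrays (13.50 ± 0.11, SD, n = 5). It ran from 13.51 to 14.05 in Wt1-null arrays (13.65 ± 0.23, SD, n = 5) and from 12.93 to 13.96 in double arrays (13.63 ± 0.34, SD, n = 7). All 4 groups overlapped. The change was -0.12 (-0.46 to 0.23) in oncogene against control, 0.04 (-0.31 to 0.38) in Wt1-null against control and 0.01 (-0.31 to 0.33) in double against control, with limma adjusted p-values of 0.805, 0.944 and 0.979. The values that set the width of the double group were those of replicate 4, at 12.93, and Wt1-null replicate 2 was the highest array at 14.05.

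The 6 Gja1 probe sets did not give the same picture. Probe set 1415801_at ran over 3.75 log2 units, from 7.50 to 11.26, while the ranges of the other 5 were 0.668 to 1.33. In control arrays it read 10.16, 8.74, 11.03, 11.25 and 9.45, and in oncogene arrays 10.10, 8.00, 7.79, 8.79 and 10.97. Its oncogene against control change was -0.99 ± 0.65 (SE, limma adjusted p = 0.515 over all probe sets), against -0.20 to -0.11 for the other 5. Of those 5, 4 carry the x_at suffix, which marks probes that may match other transcripts too.

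**Figure D2:**
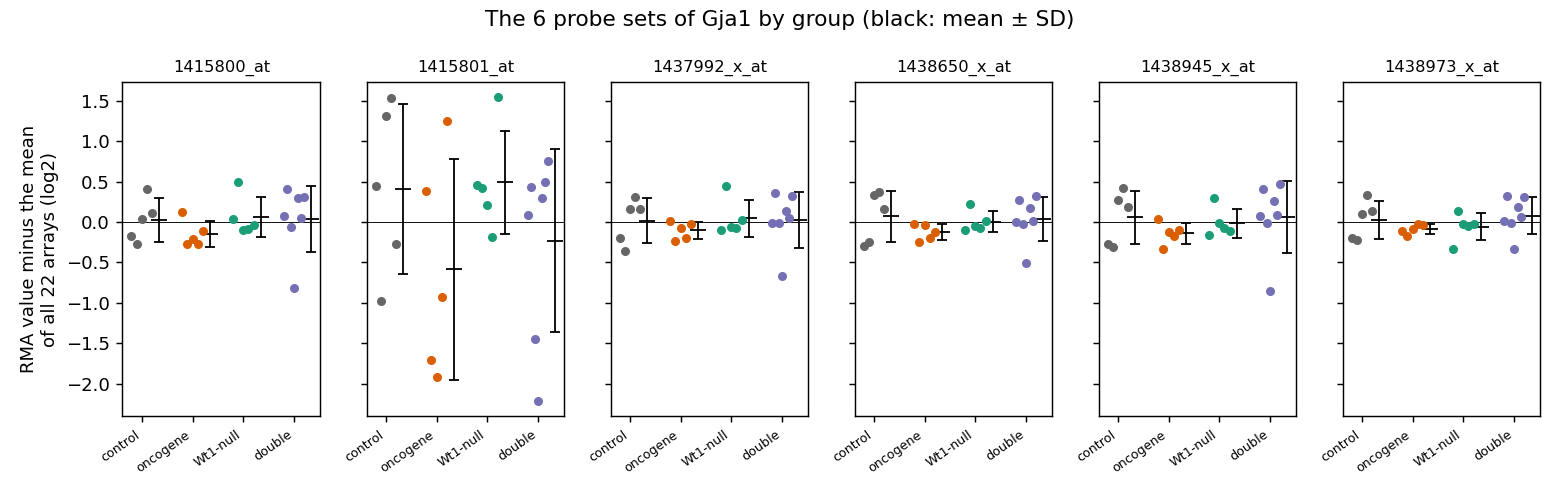
RMA value minus its mean over all 22 arrays (vertical axis, log2) of the 6 Gja1 probe sets, in 1 panel each, with arrays by group as points and black bars for the mean ± SD of 5, 5, 5 and 7 arrays. The values of 1415801_at spread over 3.75, and those of the other 5 probe sets over 0.668 to 1.33.

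Gjc1, which encodes Cx45, had its highest mean in oncogene arrays, with no called difference. The control arrays read 9.89, 8.82, 9.22, 9.13 and 9.44, a mean of 9.30 ± 0.40 (SD, n = 5), and the oncogene arrays 9.75, 9.63, 9.43, 10.43 and 10.19, a mean of 9.89 ± 0.41 (SD, n = 5). The Wt1-null arrays read 8.96, 8.72, 9.82, 9.89 and 10.34 (9.55 ± 0.68, SD, n = 5), and the double arrays ran from 8.79 to 10.48 (median 9.43, 9.38 ± 0.61, SD, n = 7). Every group overlapped with every other. The change was 0.59 ± 0.33 (SE; -0.10 to 1.27) in oncogene against control, with a limma adjusted p = 0.42, and -0.51 (-1.15 to 0.12) in double against oncogene, with an adjusted p = 1.0. The interaction was -0.76 ± 0.45 (SE, limma adjusted p = 0.608), and -1.22 with array weights (adjusted p = 0.0221). The second Gjc1 probe set gave 0.26 ± 0.25 in oncogene against control and -0.44 in double against oncogene.

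Gja4 and Gja5, the connexins of vessel walls, were near background and gave no called change. Gja4 was above background in 17 of 22 arrays, with means of 5.38 ± 0.26, 5.18 ± 0.17 and 5.22 ± 0.18 (SD, n = 5 each) in control, oncogene and Wt1-null arrays and 5.22 ± 0.40 (SD, n = 7) in double arrays. Its highest value was 6.05, in double replicate 4, and the next highest double array read 5.35. Gja5 was above background in 6 of 22 arrays, and its means were 5.09 ± 0.19, 4.98 ± 0.10, 4.89 ± 0.12 and 5.00 ± 0.29. The changes of Gja4 lay between -0.20 and 0.20 over the 6 comparisons.

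Leaving out Gjb2, which was chosen on comparisons with and without the oncogene, 0 of 6 connexins were called in oncogene against control, where limma called 2.04% of all genes, and 1 of the 6, Gjb5, had an unadjusted p below 0.05. In double against control 1 of the 6 was called, Gjb5, where 5.93% of all genes were called. None of the 7 was called in Wt1-null against control (0.104% of all genes called), double against oncogene (0.0%), double against Wt1-null (0.0824%) or the interaction (0.011%). At an unadjusted p below 0.05 in limma, 0, 0, 2 and 0 connexins passed in these 4 comparisons, against 2311, 562, 2697 and 1556 of all genes. The 2 in double against Wt1-null were Gjb5 and Gjb2, the latter chosen on this difference. The median change of the 7 was -0.13, -0.15 and -0.09 in oncogene, Wt1-null and double against control, beside -0.03, -0.05 and -0.02 for all genes. These 3 comparisons share the control arrays. The 7 include Gjb2, and the 3 medians were the values of Gjb6, Gja4 and Gja5, in that order, which lay within or near background.

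**Figure D3:**
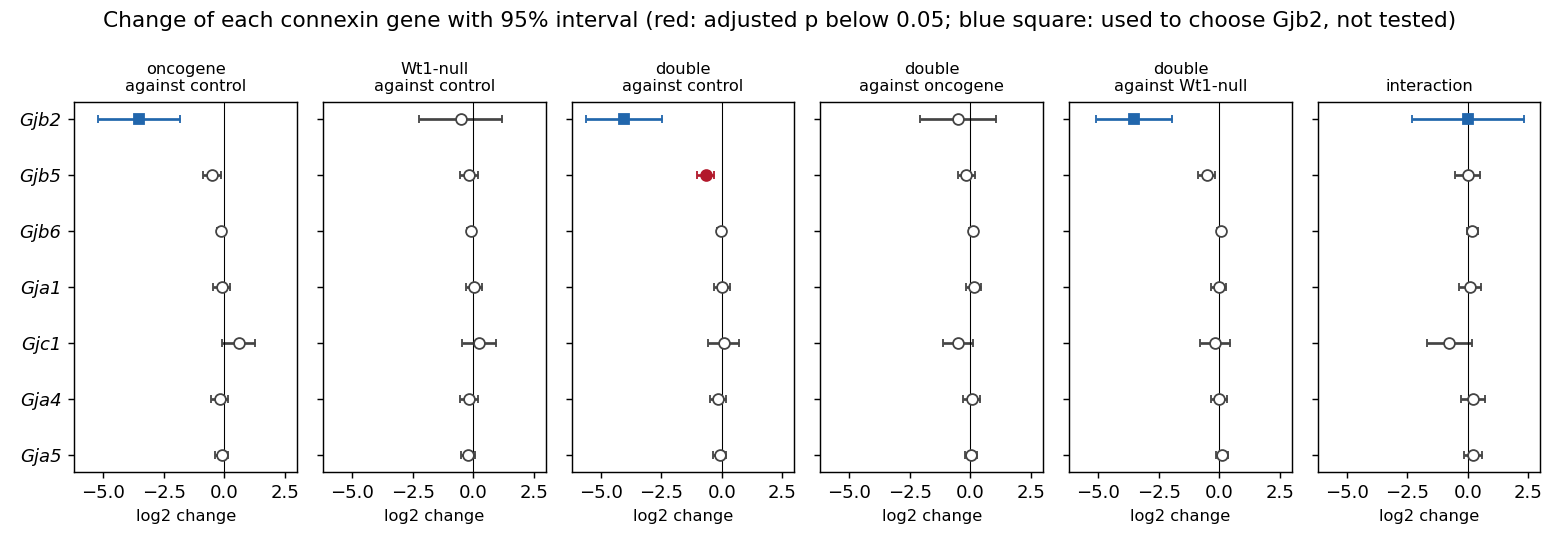
Log2 change (horizontal axis) of each connexin with its 95% interval from limma, in 1 panel per comparison, with red circles for an adjusted p below 0.05, open circles for the rest and blue squares for the Gjb2 differences that chose the gene and were not tested. Of the tested changes only Gjb5 in double against control is red, at -0.67, and the Gja1 intervals include 0 in all 6 panels.

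Other connexins and the pannexins, channel proteins of similar topology, had no called member. Of 16 genes listed 10 were measured and 6 had a mean above background. In oncogene against control 7 of the 10 were below 0 (median -0.05, 0 called, 1 at an unadjusted p below 0.05 in limma), and in double against control 8 of 10 (median -0.08, 0 called, 3 unadjusted). Of all 18193 genes, 2736 and 3660 had an unadjusted p below 0.05 in these comparisons, and their median changes were -0.03 and -0.02, also below 0. Panx1, which forms channels for ATP release, had the largest difference. Its control arrays ran from 8.76 to 9.25, its oncogene arrays from 7.90 to 8.74, its Wt1-null arrays from 7.99 to 8.69 and its double arrays from 8.07 to 9.23. The oncogene and the Wt1-null arrays both lay below all controls, as 2.81% and 4.19% of all genes did, and the double arrays overlapped with them. The changes were -0.68 ± 0.20 (SE) and -0.62 ± 0.20, with limma adjusted p-values of 0.0904 and 0.237. Gja3, a connexin of the lens, changed by -0.22 and -0.28 in oncogene and double against control.

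Of 22 listed partners and regulators of gap junctions 19 were measured. Csnk1d, a casein kinase of the family that phosphorylates Cx43, rose by 0.70 ± 0.16 (SE) in oncogene against control (limma adjusted p = 0.0254) and by 0.84 ± 0.15 in double against control (adjusted p = 0.00243). With the mean of all Csnk1d probe sets these changes were 0.21 (adjusted p = 0.208) and 0.28 (adjusted p = 0.0292), so their sizes depend on the probe set. The first call was also lost with the Xist covariate and without any of control replicates 2 to 4 or oncogene replicates 3 to 6 (9 of 38 settings, adjusted p up to 0.208). In Wt1-null against control Csnk1d changed by 0.505 (limma adjusted p = 0.232). Cttn, the actin-binding protein cortactin, rose by 0.39 ± 0.10 in double against control (limma adjusted p = 0.018), a call made in 34 of 38 settings. It was lost with the mean of its probe sets (0.28, adjusted p = 0.0502), in a fit of both groups alone and without control replicate 3 or 4. The Cttn changes in oncogene and Wt1-null against control were of like size, 0.32 and 0.41 (limma adjusted p = 0.114 and 0.154), with no call. The list's median change was 0.12 in oncogene against control (-0.03 for all genes), with 11 of 19 members above 0 and 1 called. In double against control it was 0.07 (-0.02 for all genes), with 12 of 19 above 0 and 2 called. Limma called 2.04% and 5.93% of all genes in these comparisons.

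The genes whose levels followed Gjb2 most closely over the 22 arrays were Krt7, a keratin of simple epithelia (Pearson r 0.938), and Actg2, the smooth muscle gamma actin (0.907). Next came Pias2, a SUMO ligase (0.904), Cnn1, the actin-binding calponin 1 of smooth muscle (0.896), Higd1a (0.891) and Psme3 (0.884), and without Wt1-null replicate 2 the values were 0.888 to 0.937. The arrays share their processing and their groups, so these values are descriptions. Group means of Krt7 were 8.87, 6.23, 8.56 and 6.00 in control, oncogene, Wt1-null and double arrays, and those of Cnn1 12.26, 10.08, 12.24 and 9.55. The genes closest to Gjc1 were Rad54b, of homologous recombination (r 0.972), and Mcm4, a subunit of the replicative helicase (0.949), with means of Rad54b at 6.25, 7.11, 6.71 and 6.25. The other connexins varied by an SD under 0.5 over all arrays and were not compared.

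**Figure D4:**
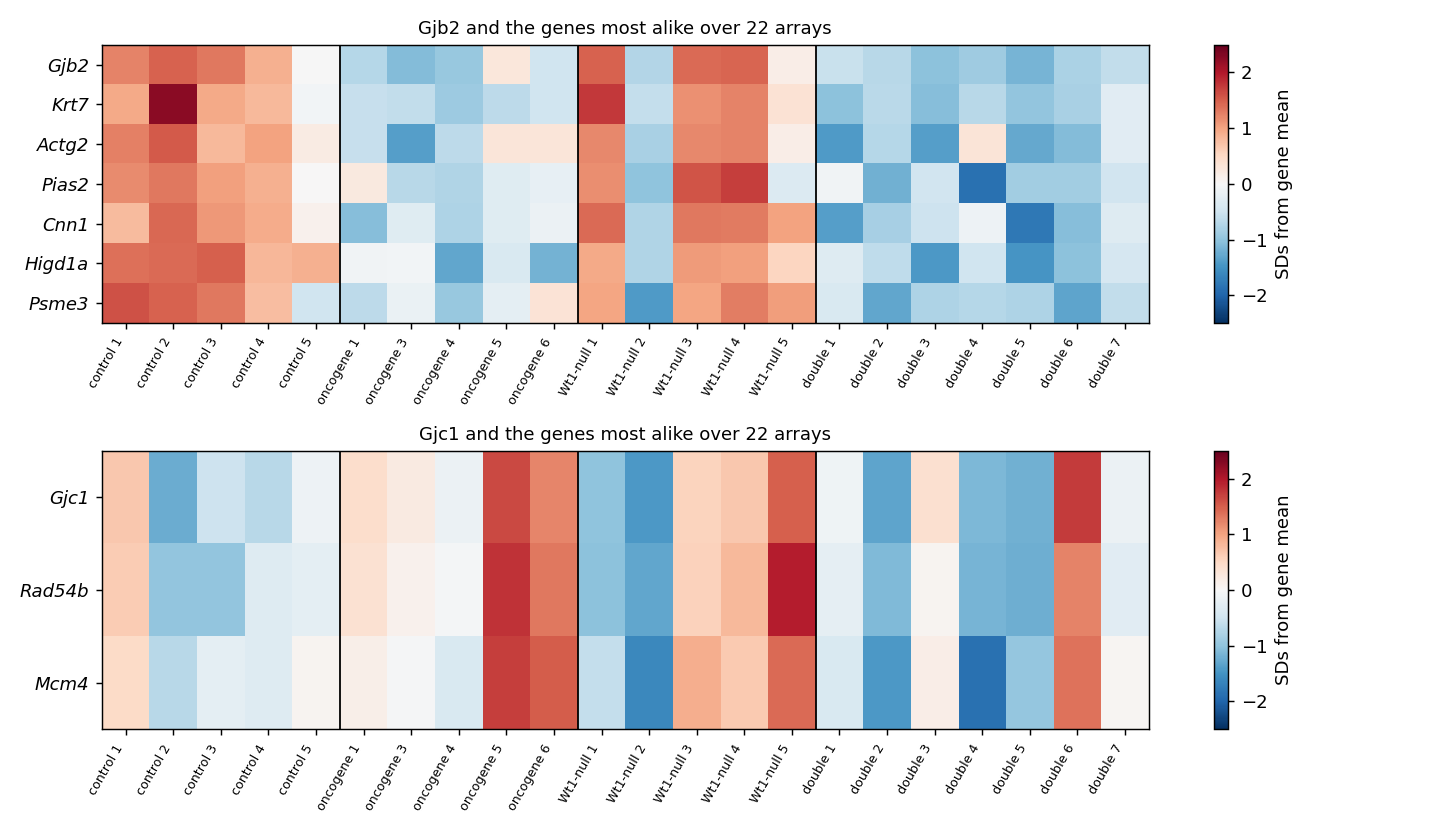
Heat maps of Gjb2 with its 6 closest genes (top) and of Gjc1 with Rad54b and Mcm4 (bottom), with 1 column per array by group and colour for the distance from the gene mean over 22 arrays in SDs. In the top map Gjb2 is below its mean in all 7 double arrays, in 4 of 5 oncogene arrays and in Wt1-null replicate 2, and above it in Wt1-null replicates 1, 3, 4 and 5.

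Cnn1, among the genes closest to Gjb2, is on the list of 6 smooth muscle markers, of which not all followed Gjb2. Des changed by -0.04 in oncogene against control, 0.28 in double against control and -0.03 in double against Wt1-null. Acta2 (14.56) and Tagln (14.01) were as bright as the fibroblast markers. All 6 smooth muscle markers were above background, and their summed level (log2 of the sum of linear values) was 15.33 to 15.94 in control, 14.88 to 15.47 in oncogene, 15.10 to 16.09 in Wt1-null and 14.46 to 15.43 in double arrays. In double against control 5 of 6 were lower and 2 were called, Cnn1 at -2.71 ± 0.54 (SE, limma adjusted p = 0.00538) and Lmod1 at -1.16 (adjusted p = 0.0325, up to 0.105 over the settings and not called in 9 of 38, among them without control replicate 1, 2, 3 or 4). Limma called 5.93% of all genes in double against control. In oncogene against control 6 of 6 were lower and 0 were called by limma, with 3 at an unadjusted p below 0.05, as 2736 of all 18193 genes were. In double against Wt1-null 6 of 6 were lower (median -1.11) and 0 were called, with 5 at an unadjusted p below 0.05, as 2697 of all genes were. Their part in the Gjb2 difference was not tested. The 9 epithelial markers gave 0 calls by limma in any comparison and 0 to 1 at an unadjusted p below 0.05, the largest difference being 1.64 ± 0.75 (SE) for Krt18 in double against control (adjusted p = 0.22), with summed levels of 9.86 to 10.93, 9.52 to 11.01, 10.01 to 10.68 and 9.78 to 11.69 in control, oncogene, Wt1-null and double arrays. Krt7, the gene closest to Gjb2, is not on this epithelial list. It changed by -2.64 in oncogene against control and by -2.87 in double against control. These are descriptions, because Krt7 was picked by its likeness to Gjb2. The 7 endothelial markers, of which 4 were above background (Cdh5 close to it, at 5.35), summed to 8.63 to 9.47, 8.90 to 9.53, 9.08 to 9.45 and 8.87 to 9.50.

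In double against control limma called 2 of 11 fibroblast, 1 of 7 endothelial and 1 of 5 macrophage markers, beside 5.93% of all genes. In oncogene against control it called 1 of the 11 fibroblast, 0 of the 7 endothelial and 0 of the 5 macrophage markers, beside 2.04%. Of 6 skeletal muscle and 4 mesothelial markers 0 were called in either. Among fibroblast markers Pdgfra, a receptor for platelet-derived growth factor, rose by 1.97 in oncogene and 1.78 in double against control (limma adjusted p = 0.0233 and 0.0136), and the first call was lost in 5 of 38 settings, among them without control replicate 2, 3 or 4 or oncogene replicate 5. Fn1, fibronectin, rose by 0.91 in double against control (limma adjusted p = 0.0256), but by 0.41 with the mean of its probe sets (adjusted p = 0.519). It was not called in 7 of 38 settings, among them without control replicate 2, 3 or 4 or double replicate 5. The Fn1 changes in oncogene and Wt1-null against control were of like size, 0.85 and 0.88 (limma adjusted p = 0.091 and 0.195), with no call. Tek, an endothelial receptor, rose by 1.29 in double against control (adjusted p = 0.0448 in limma). That call was lost in 17 of 38 settings, among them without any one of the 5 control replicates. Tek also changed by 1.29 in oncogene and by 0.55 in Wt1-null against control (limma adjusted p = 0.108 and 0.577), with no call. Cd68, a lysosomal protein of macrophages, rose by 0.80 in double against control (limma adjusted p = 0.0305). This call was lost in 9 of 38 settings, among them without control replicate 1, 2 or 4 or double replicate 2, 3 or 5. In oncogene and Wt1-null against control Cd68 changed by 0.53 and 0.19 (limma adjusted p = 0.285 and 0.764). Of the 5 macrophage markers 3 had a mean above background, Csf1r (7.30), Cd68 (6.47) and Adgre1 (5.36), and Ptprc (4.52) and Itgam (4.23) were within it. Skeletal muscle and mesothelial markers had 0 called genes in limma in all 6 comparisons, with 0 to 2 and 0 to 1 at an unadjusted p below 0.05. Their largest differences were in Msln, mesothelin, at 2.01 ± 0.71 (SE) in oncogene against control (limma adjusted p = 0.157), and in Actc1, cardiac actin, at -0.56 ± 0.16 in double against Wt1-null (adjusted p = 0.129).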

How the data were processed

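The values are the log2 values the authors deposited, made with RMA in Affymetrix Expression Console, per the submitters' processing notes; its version is not given in the sources used here. RMA removes background, equalises the arrays' distributions and combines the probes of each set, and it compresses differences near background. Arrays have no depth, and their number limits the precision.

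Of 45101 probe sets, 34945 had exactly 1 gene in the platform annotation, 932 had several, 9160 had none and 64 were controls. The brightest probe set on average stood for its gene, giving 18193 genes. Means of the 4 groups were fitted to all 22 arrays by lmFit and eBayes (limma 3.58.1, R 4.3.3), with Benjamini-Hochberg adjustment over all genes and 95% intervals. On simulated data of 18193 genes, changes of 1 were found in 74% of 50 genes for oncogene against control and in 80% for double against Wt1-null. The simulated noise was independent between arrays, with no accession sets and no near-identical arrays, unlike these data.

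The connexins and lists were chosen with earlier results of these data known. Named were all connexins, the called genes of the lists (where none was called, the 1 or 2 with the largest change) and the genes most correlated with a connexin whose SD over all arrays was at least 0.5 (6 for Gjb2, 3 otherwise, without connexins and clone names). The oncogene and 1 of the 3 genes closest to Gjc1 are not reported here by name. Alternatives covered the probe sets, a filter on dim genes, scaling, variance, array weights, blocks, Xist as a covariate and each array left out. Deviations from the group means correlated by over 0.1 in 13 of 28 pairs of same-numbered arrays of different groups (from -0.471 to 0.773, mean 0.0613, against -0.00892 for other pairs). Not every pair passed, so the numbers were not taken as pairs, although some, such as oncogene and double replicates 3 and 4, were nearest arrays of each other.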

Additional observations from a re-analysis of the deposited data

Results flagged for a closer look

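In 52 tests of single arrays within groups of 5 or 7, each asking whether the highest or lowest array stood apart from the next, 7 groups stood out, where chance gives about 1 in 20. Of these, 5 concern double replicate 4, which was the array with the lowest mean correlation with all others (0.940). In it Gja1 was lowest of the double arrays in all 6 probe sets, and stood apart in 4, at 12.68 for 1415800_at (next 13.44), 12.93 for 1437992_x_at (next 13.59), 12.33 for 1438650_x_at (next 12.81) and 11.88 for 1438945_x_at (next 12.72). In the same array Gja4 was highest, at 6.05 (next 5.35). In Wt1-null replicate 2 Gja1 was highest of its group, at 14.0 for 1415800_at (next 13.54) and 14.05 for 1437992_x_at (next 13.63). The Gja1 probe sets measure 1 gene in the same arrays and are not independent.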

How the results depend on the processing

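Of 38 settings, 37 were planned and 1, leaving out Wt1-null replicate 2 and double replicate 2 together, was chosen after seeing the data. No called change turned its sign in any setting. The counts of called connexins include Gjb2, whose differences with the oncogene chose it, and for it they only record how the fit moves. In oncogene against control the count was 1, Gjb2, 3 with array weights, 0 with the replicate block (Gjb2 then changed by -3.70) and 0 to 1 when single arrays were left out (0 without control replicate 1, 2, 3 or 4 or oncogene replicate 3, 4 or 6). In double against control 2 were called, 4 with array weights, 1 with only the 2 groups compared in the fit, and 1 to 2 with single arrays left out. In double against Wt1-null 0 were called, 2 with array weights, 1 with both of the near-identical arrays left out and 0 to 1 with single arrays left out (1, Gjb2, without Wt1-null replicate 2). The interaction had 0, and 1 with array weights. Wt1-null against control and double against oncogene had 0 in every setting run. Signs turned in at least 1 setting for 21 of 42 connexin changes, none of them called. Over all genes the calls ran from 139 to 4417 in oncogene against control (371 in the fit reported), 2 to 6016 in Wt1-null against control (19), 568 to 6036 in double against control (1078), 0 to 3501 in double against Wt1-null (15) and 0 to 2748 in the interaction (2), each highest with array weights. The block on the labels' replicate numbers changed no other connexin call. By the correlation of deviations from the group means, the best match in another group had the same number for 4 of 22 arrays. The third accession set alone could not be fitted for comparisons with Wt1-null arrays, nor the groups compared alone for the interaction. The number of arrays limits what can be seen: simulated log2 changes of 0.5 were recovered in 20% of genes in oncogene against control. That rate is for randomly picked genes with independent noise, and it does not carry over to genes of wide spread such as Gjb2.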
